A study of Mus musculus with 4 samples.

Results

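The genes that make, load and display peptides on MHC class I were followed in single-cell RNA sequencing (scRNA-Seq) libraries of mouse lung. The 10 members, matched by gene symbol among the 32285 genes counted, were the heavy chains *H2-K1* and *H2-D1* with their light chain *B2m*, the peptide transporter subunits *Tap1* and *Tap2* with the loading factor *Tapbp*, the immunoproteasome subunits *Psmb8*, *Psmb9* and *Psmb10*, and the transcriptional regulator *Nlrc5*. Each symbol matched 1 row. The cells came from the left lung lobe of male C57BL/6 mice, either young (2 to 3 months) or aged (22 months). A food-restricted diet was given, and the sources used here leave unclear whether the young mice also received it, so diet and age cannot be told apart. At each age, 1 library was made from naive nonventilated mice and 1 from mice ventilated for 3 hours. Ventilated mice also received anesthesia (ketamine and medetomidine), buprenorphine, vascular lines and pure oxygen, and were ventilated at a high tidal volume without end-expiratory pressure. Every library held frozen and thawed cells of 3 mice pooled, so single mice cannot be told apart, and each group had 1 library. No test was therefore possible. A level is given in UMIs (unique molecular identifiers, which count each captured transcript once) per 1000000 UMIs (CPM), and a difference as the ratio of 2 levels or its log2. The intervals are exact 95% intervals and cover counting error only, not the spread between mice.

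Class I molecules show short peptides from inside the cell to CD8+ T cells. The proteasome cuts the peptides, TAP pumps them into the endoplasmic reticulum, and tapasin (the product of *Tapbp*) helps load them onto a heavy chain paired with β2-microglobulin. Interferons induce this machinery as a set: the subunits encoded by *Psmb8*, *Psmb9* and *Psmb10* replace the constitutive catalytic subunits encoded by *Psmb5*, *Psmb6* and *Psmb7*, and NLRC5, itself induced by interferon, is a transactivator of class I genes. Endothelial cells line the lung capillaries and carry class I at their surface.

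Of 15428 barcodes, 10160 cells were kept, of which 2533 and 2976 came from young lungs (nonventilated, then ventilated) and 2480 and 2171 from aged lungs. The kept cells held 22814008 to 28010151 UMIs per library, and the median cell 7871 to 9104 UMIs. Clusters were built without the members, other H2 genes or related pathway genes, and were named from marker genes. In all, 21 cell types were named, and 16 of them had at least 20 cells in each library and were compared. Lung endothelial, stromal, epithelial and immune markers were all present. In total, 23 barcodes occurred in 2 libraries, and in 8 cases both were kept.

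In the GRCm38 mouse genome, 7 of the 10 members lie on chromosome 17. *Tapbp* (chr17:33915899-33929292, + strand) and *H2-K1* (chr17:33996017-34000347, − strand) come first, followed by a tight group of *Psmb9* (chr17:34181987-34187764, − strand), *Tap1* (chr17:34187553-34197225, + strand), *Psmb8* (chr17:34197721-34201454, + strand) and *Tap2* (chr17:34203527-34216321, + strand). *H2-D1* (chr17:35262730-35267499, + strand) lies beyond them. *B2m* is on chromosome 2 (chr2:122147686-122153083, + strand), and *Nlrc5* (chr8:94434356-94527272, + strand) and *Psmb10* (chr8:105935735-105938444, − strand) are on chromosome 8. All 10 are annotated as protein coding. *Tapbp* overlaps *Zbtb22* on the same strand by 3422 bases, so reads there cannot be assigned with certainty, and *Tap1* and *Psmb9* overlap by 212 bases on opposite strands. Of 60-base windows at the 3′ ends, where this assay reads, 4.08% for *H2-D1* and 0% for the other 9 members also occur in another counted gene.

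RefSeq promoter windows (build GRCm38.p6, from 250 bases before to 50 after the transcription start) were matched for 8 of the 10 members, with *H2-K1* having 2 windows. In each window, 5 letter patterns were searched on both strands: GAANNGAAA and the same letters with a further A in the first block (patterns of the kind that interferon-regulatory factors and ISGF3 read, which can overlap), TTCNNNGAA (the STAT dimer pattern), a palindrome of GGGA, 2 free bases and TCCC (an NF-κB pattern) and CCAAT. They are shown for the 3 chain genes, whose level over all young cells differed little with ventilation, and for *Tap1* and *Psmb8*, whose level was higher there. The stretches below end at the base before the transcription start, are read 5′ to 3′ on the gene's own strand, and carry any match in capitals.
H2-K1, chr17:34000348-34000507, − strand: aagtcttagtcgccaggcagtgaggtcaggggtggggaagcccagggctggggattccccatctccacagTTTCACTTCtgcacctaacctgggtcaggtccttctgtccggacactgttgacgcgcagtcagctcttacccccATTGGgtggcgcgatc
H2-D1, chr17:35262934-35263093, + strand: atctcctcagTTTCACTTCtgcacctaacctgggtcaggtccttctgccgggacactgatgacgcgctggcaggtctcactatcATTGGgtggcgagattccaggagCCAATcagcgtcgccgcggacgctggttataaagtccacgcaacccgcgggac
B2m, chr2:122147527-122147686, + strand: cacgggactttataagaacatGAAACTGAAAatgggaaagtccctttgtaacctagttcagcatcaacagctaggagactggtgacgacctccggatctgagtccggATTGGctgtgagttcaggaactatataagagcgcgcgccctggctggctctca
Tap1 (up to the start of Psmb9), chr17:34187330-34187555, + strand: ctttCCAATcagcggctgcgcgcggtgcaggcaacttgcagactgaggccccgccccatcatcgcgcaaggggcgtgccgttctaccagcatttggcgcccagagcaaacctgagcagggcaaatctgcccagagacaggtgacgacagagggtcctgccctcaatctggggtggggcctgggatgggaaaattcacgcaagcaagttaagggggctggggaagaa
Psmb8, chr17:34198035-34198194, + strand: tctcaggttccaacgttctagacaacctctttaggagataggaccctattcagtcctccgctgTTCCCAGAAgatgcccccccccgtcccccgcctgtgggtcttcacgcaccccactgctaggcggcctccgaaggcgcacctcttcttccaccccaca
The GAANNGAAA pattern occurred in 7.52% of all 32851 promoter windows. It was found in *H2-K1* (beginning 90 bases before the start) and in *H2-D1* (150 bases before it), on the reverse strand in both. The longer form, in 3.44% of windows, was found in *B2m* alone among the members (139 bases before the start). The STAT pattern, in 8.30% of windows, was found only in *Psmb8* (97 bases before the start). The palindrome of GGGA and TCCC, in 0.664% of windows, was found in none of the 8. Other letter forms of NF-κB sites were not searched, so sites of such forms may still be present. The CCAAT letters, in 37.4% of windows, were present in *H2-K1*, *H2-D1*, *B2m*, *Tapbp*, *Tap1* and *Psmb9*. *Tap1* and *Psmb9* are transcribed away from each other from RefSeq starts 226 bases apart. Their windows share 275 bases, so that the CCAAT of both is the same. The overlap of 212 bases given above is between GENCODE gene bounds, which differ from these RefSeq starts. A match describes the letters only.

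Across all cells, the chain genes were close to each other in the 4 libraries, while the transporter, *Psmb8* and *Nlrc5* levels differed. *Nlrc5* was at 60.4 CPM in the young nonventilated and 124 CPM in the young ventilated library, and at 75.9 and 80.7 CPM in the corresponding aged libraries. *Tap1* was at 57.9, 97.1, 59.2 and 60.2 CPM, first in young nonventilated and ventilated lungs and then in aged nonventilated and ventilated lungs, an order kept wherever 4 values follow each other. *Psmb8* was at 155, 218, 161 and 161 CPM. For all of these, the young ventilated library was the highest. The other libraries were close to each other for *Tap1* and *Psmb8*, while *Nlrc5* was lower in the young nonventilated library than in the aged ones.

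**Figure D1:**
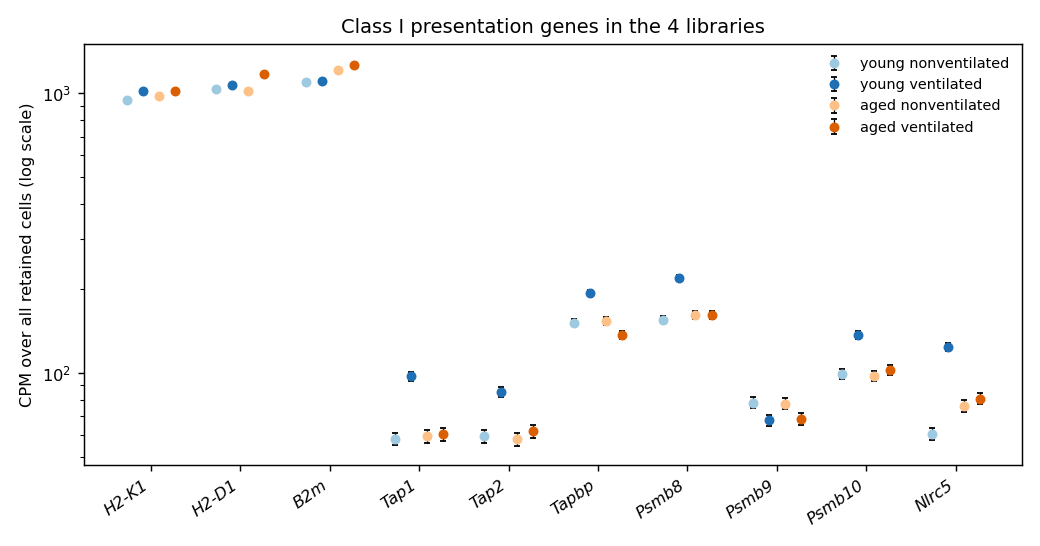
Level of each gene in CPM over all retained cells (log axis) in the 4 libraries. Points are libraries of 3 pooled mice and bars are exact 95% Poisson intervals; the young ventilated library is highest for *Tap1*, *Tap2*, *Tapbp*, *Psmb8*, *Psmb10* and *Nlrc5*, while *Psmb9* is lower in both ventilated libraries on this CPM scale (not under TMM scaling).

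In young mice, ventilated over nonventilated ratios were 2.05 for *Nlrc5* (95% interval 1.93 to 2.18) and 1.68 for *Tap1* (1.57 to 1.79). These were the 2 of 10 members that were at least 1.5-fold higher, beside 14.7% of the 4118 genes whose mean reached 50 CPM. *Tap2* followed at 1.44, *Psmb8* at 1.41, *Psmb10* at 1.38 and *Tapbp* at 1.28, each with an interval above 1. *H2-K1* (1.08), *H2-D1* (1.03) and *B2m* (1.00, 0.985 to 1.02) differed little, and *Psmb9* was lower at 0.866 (0.812 to 0.924), a direction that TMM scaling turned to a log2 ratio of 0.01. The median log2 ratio of the members was 0.41, against −0.02 over all genes. Scaling by TMM factors, which leave the most extreme genes out of the total, added 0.22 to every log2 ratio of this comparison and put 5 members past 1.5-fold.

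In aged mice, no member reached 1.5-fold in either direction, where 9.17% of 4100 genes were at least 1.5-fold higher and 11.5% lower. The log2 ratios ran from −0.18 (*Psmb9*) to 0.20 (*H2-D1*), with a median of 0.06. *Nlrc5* had a ratio of 1.06 (0.996 to 1.14) and *Tap1* one of 1.02 (0.945 to 1.10), and both intervals hold 1. *Tapbp*, which was higher after ventilation in young mice, was lower in aged mice at 0.891 (0.850 to 0.935). TMM factors added 0.19 here, which turned the signs of *Tapbp* (log2 ratio 0.02) and *Psmb9* (0.00).

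Over all cells of nonventilated mice, the aged and young libraries differed little. *Nlrc5* had the largest ratio of the 10, 1.26 (1.17 to 1.35) for aged over young, and no member passed 1.5-fold, where 2.07% of 4164 genes were at least 1.5-fold higher and 0.793% lower. After ventilation, the aged library was at least 1.5-fold lower for 2 of 10 members, *Tap1* (0.620, 0.581 to 0.662) and *Nlrc5* (0.651, 0.615 to 0.689), beside 5.71% of 3995 genes. *Tap2*, *Tapbp*, *Psmb8* and *Psmb10* were at 0.706 to 0.750 of the young level. *B2m* was higher in the aged library, at 1.15 (1.13 to 1.17). Ventilated libraries enter both this comparison and the preceding ones, so the values are not independent of each other.

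The members differed widely in level between cell types. The heavy and light chain genes were present in every named type, and the spread over the 4 libraries of neighboring types in the order mostly overlapped. *B2m* had its highest mean in nonclassical monocytes (2294 CPM, 2115 to 2362 over the 4 libraries) and aerocytes, the thin gas-exchange capillary cells (1961 CPM), and its lowest in alveolar type II cells (251 CPM). *H2-D1* was highest in aerocytes (2156 CPM) and *H2-K1* in T or NK cells (2001 CPM) and aerocytes (1875 CPM), and both were lowest in smooth muscle, at 228 and 185 CPM. The type II cells numbered only 11 to 25 per library, and 107 to 451 CPM was their range for *B2m*.

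The transporter genes and *Nlrc5* had their highest means in capillary endothelium. *Tap1* had a mean of 188 CPM in aerocytes, 141 CPM in general capillary cells (the other capillary type) and 102 CPM in venous cells, and 4.71 CPM in smooth muscle, where 1 library had no UMI of it. *Tap2* had the same order of the first 3, at 146, 128 and 115 CPM. *Nlrc5* was at 256 CPM in aerocytes and 213 CPM in general capillary cells (145 to 343 CPM over the libraries), followed by T or NK cells at 176 CPM (99.1 to 232) and venous cells at 144 CPM (76.9 to 197), whose ranges overlap. It was lower in lymphatic endothelium, at 48.7 CPM, and at 5.66 CPM in alveolar macrophages and 3.83 CPM in alveolar type I cells, the flat epithelium. In aerocytes, the range over the libraries was 88.7 to 410 CPM for *Tap1* and 122 to 526 CPM for *Nlrc5*, with the young ventilated library highest. In both nonventilated libraries, aerocytes were below general capillary cells for these genes, so the order of the means is not that without ventilation. The ranges over libraries of aerocytes, general capillary and venous cells overlapped for all 3 genes. Together, these 3 types gave 64.3% of all *Nlrc5* UMIs in the young nonventilated library and 77.2% in the young ventilated one, from 29.2% and 26.3% of all UMIs. In the aged libraries, they gave 56.5% and 55.9%.

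**Figure D2:**
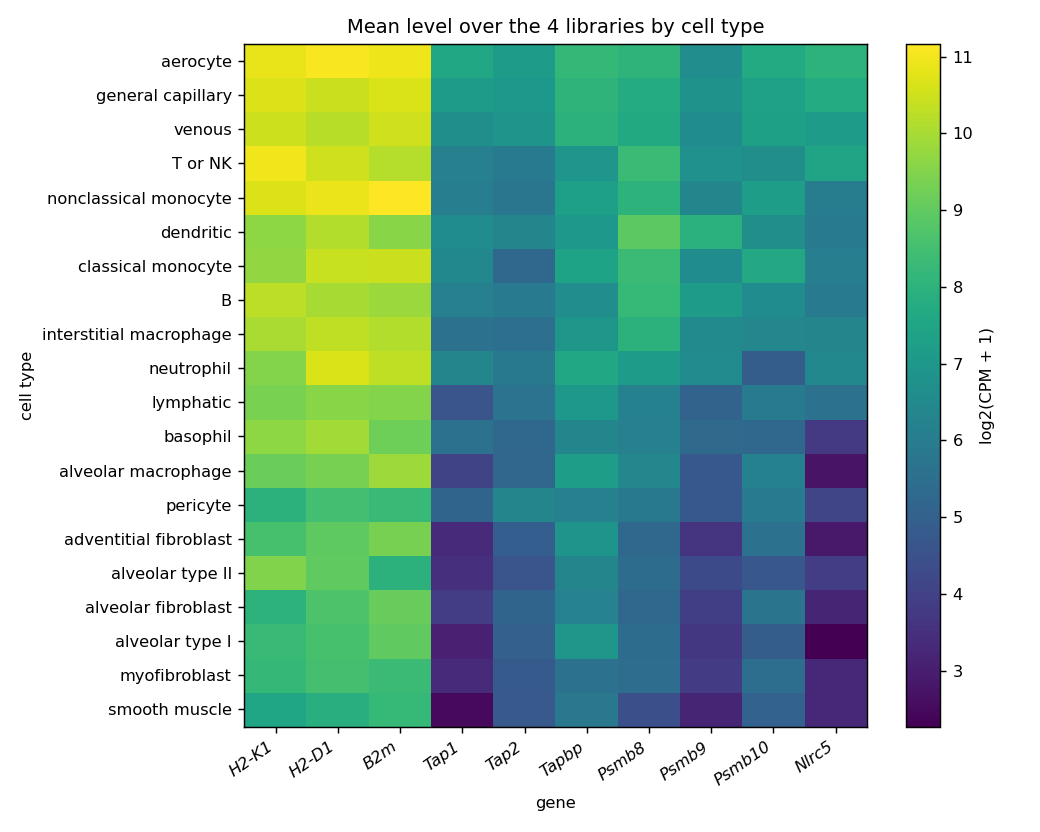
Mean level over the 4 libraries of each gene, as log2(CPM + 1), in 20 named cell types ordered by their average over the genes. Aerocytes, general capillary and venous cells are at the top, lymphatic endothelium is in the middle and smooth muscle at the bottom; *Psmb8* and *Psmb9* are brightest in dendritic cells.

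The immunoproteasome genes had another order. *Psmb8* was highest in dendritic cells (486 CPM), whose 4 libraries (471 to 496 CPM) did not overlap those of classical monocytes, next at 321 CPM. *Psmb9* was also highest in dendritic cells (245 CPM), followed by B cells (141 CPM). *Psmb10* was highest in aerocytes (207 CPM) and classical monocytes (199 CPM), and was low in neutrophils (28.5 CPM). Smooth muscle was lowest for *Psmb8* (20.5 CPM) and *Psmb9* (8.22 CPM).

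Over the means of 20 cell types, 7 of the 10 members were most like another member. *Psmb8* and *Psmb9* had a Pearson r of 0.973 on the log2(CPM + 1) scale and were each other's nearest of 8390 genes. *Psmb9* was the nearest to *Tap1*, its neighbor across the shared promoter (r = 0.932), and *H2-K1* and *H2-D1* were nearest to each other (r = 0.924). *B2m* was nearest to *H2-D1* (0.899), *Tap2* to *Tap1* (0.853), and *Nlrc5* to *H2-Q7*, another class I heavy chain (0.904). *Tapbp* was nearest to *Eif2ak2* (0.866) and *Psmb10* to *Dcp2* (0.865), which are not members. The 20 points share the same 4 libraries, so these values are descriptions.

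Ventilation was then compared within cell types. There were 588, 643, 506 and 365 general capillary cells. Nonventilated cells lay almost all in one cluster (582 of 588 young cells and 497 of 506 aged cells) and ventilated cells mostly in another (633 of 643 young cells and 312 of 365 aged cells), and these were joined by their markers. *Nlrc5* was at 145, 343, 179 and 184 CPM in these libraries, in the usual order, *Tap2* at 102, 203, 94.0 and 114 CPM, and *Psmb8* at 196, 370, 149 and 146 CPM. For each of them, the young ventilated library was again alone at the top.

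In young general capillary cells, 5 of 10 members were at least 1.5-fold higher after ventilation, beside 16.5% of 3666 genes. They were *Nlrc5* (2.37-fold, 2.17 to 2.60), *Tap2* (1.98-fold, 1.78 to 2.22), *Psmb8* (1.89-fold, 1.75 to 2.05), *Tap1* (1.83-fold, 1.66 to 2.03) and *Psmb10* (1.57-fold, 1.43 to 1.73). *Tapbp* was at 1.45-fold. The chains differed little, at 1.11-fold for *H2-K1*, 1.02-fold for *H2-D1* and 0.989-fold for *B2m*. The member median was a log2 ratio of 0.60, against −0.07 over all genes. In aged cells, 0 of 10 members reached 1.5-fold higher, beside 11.8% of 3634 genes, and the median was −0.01. *Psmb10* was lower in aged mice after ventilation (0.793, 0.698 to 0.899), and *Psmb9* was lower at both ages (0.828 and 0.689), though under TMM scaling, which added 0.30 to young and 0.14 to aged log2 ratios, its young ratio was above 1. Between the ventilated libraries, 7 of 10 members were at least 1.5-fold lower in aged cells, beside 5.71% of 3452 genes, with *Psmb8* lowest at 0.394 (0.356 to 0.434). All members but *Nlrc5* were also below the young level without ventilation, from 0.762 for *Psmb8* to 0.954 for *Psmb10*, and *Nlrc5* was at 1.24.

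Marker levels also differed in the general capillary endothelial cells. The summed level of the 8 general capillary markers was 7646, 5441, 7753 and 6612 CPM in the same library order. Club cell markers were at 128, 211 and 181 CPM in the first 3 libraries and at 3340 CPM in the aged ventilated one, and erythroid markers at 1.73, 224, 4.25 and 366 CPM. The part of these in the member values was not tested.

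Aerocytes, which lay in the same 2 clusters in all libraries (221, 226, 129 and 116 cells), had the widest differences among the endothelial types. *Tap1* was at 92.5 CPM in the young nonventilated and 410 CPM in the young ventilated library, and at 88.7 and 159 CPM in the aged libraries. *Nlrc5* was at 130, 526, 122 and 246 CPM, and *Tapbp* at 190, 490, 223 and 262 CPM, in the usual order. Here the aged ventilated library lay between the nonventilated libraries and the young ventilated one. In young aerocytes, 6 of 10 members were at least 1.5-fold higher with *Psmb10* included at 1.93-fold, beside 20.1% of 3624 genes. *Tap1* was 4.43-fold (3.68 to 5.37), *Nlrc5* 4.04-fold (3.45 to 4.75), *Tap2* 3.10-fold (2.53 to 3.81), *Psmb8* 2.87-fold (2.50 to 3.31) and *Tapbp* 2.58-fold (2.24 to 2.97) higher.

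In aged aerocytes, the 3 members at least 1.5-fold higher were *Nlrc5* (2.02-fold, 1.61 to 2.55), *Tap1* (1.80-fold, 1.37 to 2.38) and *Tap2* (1.56-fold, 1.19 to 2.07), beside 14.7% of 3608 genes. *Psmb8* was 1.33-fold higher (1.08 to 1.65), *Tapbp* 1.18-fold (0.975 to 1.42), and *Psmb10* was at 0.810 (0.646 to 1.01). The member median was 1.16 in young and 0.42 in aged aerocytes on the log2 scale. Unlike in general capillary cells, the chains were higher after ventilation at both ages, with *H2-K1* at 1.35-fold and 1.39-fold, *H2-D1* at 1.25-fold and 1.34-fold, and *B2m* at 1.11-fold and 1.28-fold in young and aged mice. Between the ventilated libraries, 7 of 10 members were at least 1.5-fold lower in aged aerocytes, beside 10.2% of 3407 genes.

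Venous endothelial cells (86, 67, 87 and 81 cells) also had higher member levels in young ventilated mice, where all 10 ratios were above 1. Of these, 6 of 10 members were at least 1.5-fold higher, beside 20.9% of 3652 genes, with *Tap1* at 2.81-fold (1.98 to 4.02), *Nlrc5* at 2.57-fold (1.90 to 3.48) and *Tap2* at 2.34-fold (1.74 to 3.19). In aged mice, *Tap1* alone passed, at 1.51-fold (1.10 to 2.07), beside 15.2% of 3576 genes. The aged ventilated cells were at least 1.5-fold lower than the young ventilated ones for 4 of 10 members, *Psmb8*, *Tapbp*, *Psmb10* and *Tap2*, beside 10.3% of 3548 genes. Venous *Nlrc5* was 2.02-fold higher (1.50 to 2.76) in aged than in young cells without ventilation.

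**Figure D3:**
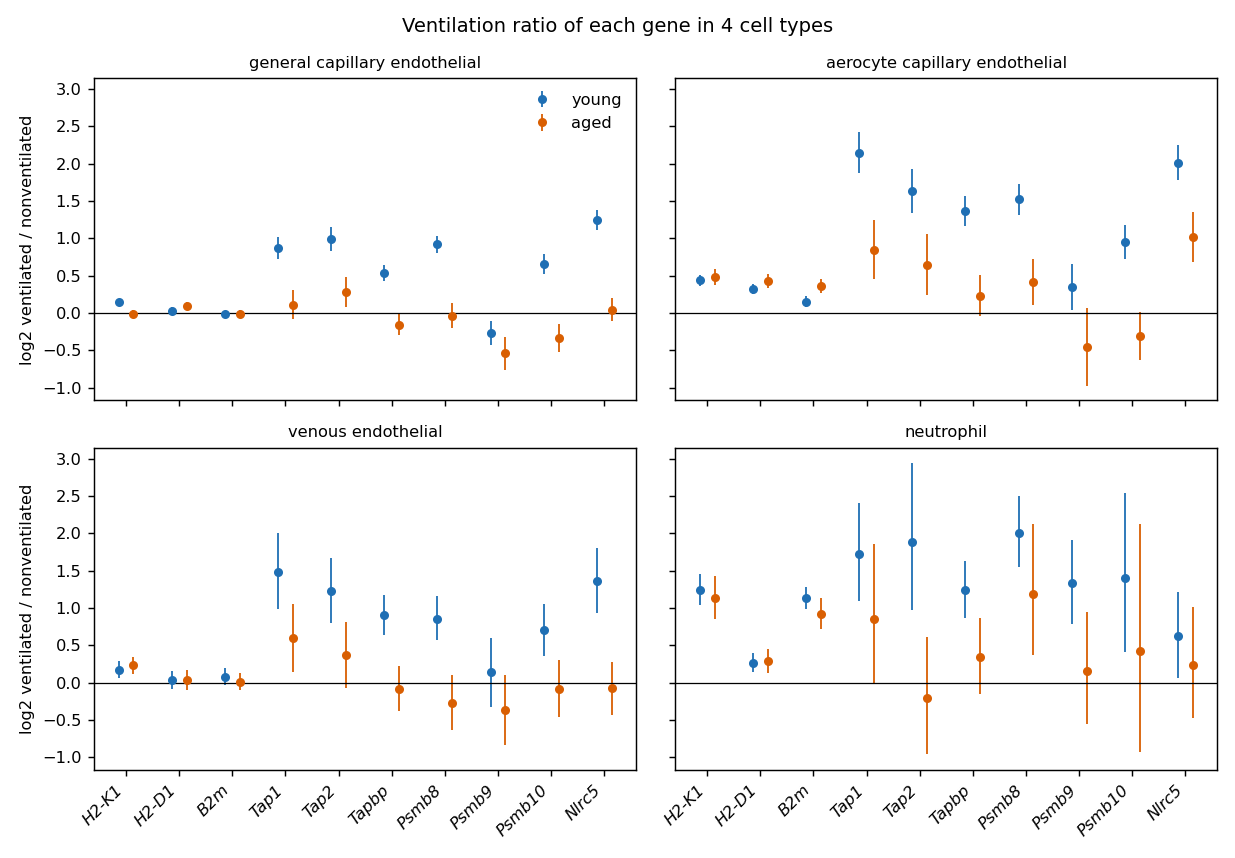
Log2 of the ventilated over nonventilated ratio of each gene in general capillary, aerocyte and venous endothelial cells and in neutrophils. Blue points are young and orange points aged mice, with exact 95% counting intervals; in the endothelial panels the young values of *Tap1*, *Tap2*, *Tapbp*, *Psmb8*, *Psmb10* and *Nlrc5* lie above the aged ones.

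To see whether few or many cells carried the difference, each cell was thinned to 3000 UMIs and the 7 members other than the chains were summed. Cells below that depth were left out, so that 130 to 150 young and 87 to 88 aged aerocytes and 347 to 577 general capillary cells remained per library, with 71 and 96 young and 41 and 29 aged aerocytes too shallow in the nonventilated and ventilated libraries. In young aerocytes, the 10th percentile, median and 90th percentile were 1, 2 and 5.1 UMIs without and 3, 8 and 14 UMIs with ventilation. In aged aerocytes, the median was 3 UMIs in both libraries. General capillary cells had medians of 3, 5, 3 and 2 UMIs in the usual library order, and none of the 7 genes was seen in 6.57%, 2.08%, 8.83% and 13.8% of cells. In the young ventilated library, the whole distribution lay higher, from the 10th percentile up, in both cell types.

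Neutrophils, whose number was 122, 222, 59 and 256 in the 4 libraries, were the type with the most members higher. *H2-K1*, which differed little with ventilation in general capillary cells, was at 435, 1030, 460 and 1008 CPM. *B2m* was at 809, 1768, 849 and 1606 CPM. For both chains, the 2 ventilated libraries were close to each other and above the nonventilated ones at either age, with ratios of 2.37 (2.06 to 2.73) and 2.19 (1.81 to 2.68) for *H2-K1* in young and aged mice. In contrast, *Psmb8* was at 78.0, 313, 53.3 and 121 CPM, so that the young ventilated library exceeded the aged ventilated one, with an aged over young ratio of 0.388 (0.319 to 0.469).

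In young neutrophils, 9 of 10 members were at least 1.5-fold higher, the exception being *H2-D1* at 1.21-fold, beside 17.0% of 2498 genes. In aged neutrophils, 4 of 10 were, namely *Psmb8*, *H2-K1*, *B2m* and *Tap1*, beside 15.6% of 2555 genes, though the interval of *Tap1* (0.999 to 3.61) holds 1. Between the ventilated libraries, 4 of 10 were at least 1.5-fold lower in aged neutrophils, beside 8.26% of 2277 genes. A mean of 50 CPM was reached by 8 members in young neutrophils, 9 in aged ones and 9 between the ventilated libraries. The nonventilated sums were small, with *Psmb10* at 18.1 CPM in young cells. Over all genes, the neutrophil log2 ratios had a median of −0.32 at both ages, and the 8 general capillary markers were at 52.6, 131, 115 and 105 CPM. Neutrophil markers were at 88800, 147900, 87270 and 155800 CPM, and the part of these shifts in the member ratios was not tested. TMM factors added 0.47 in young and 0.63 in aged neutrophils.

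**Figure D4:**
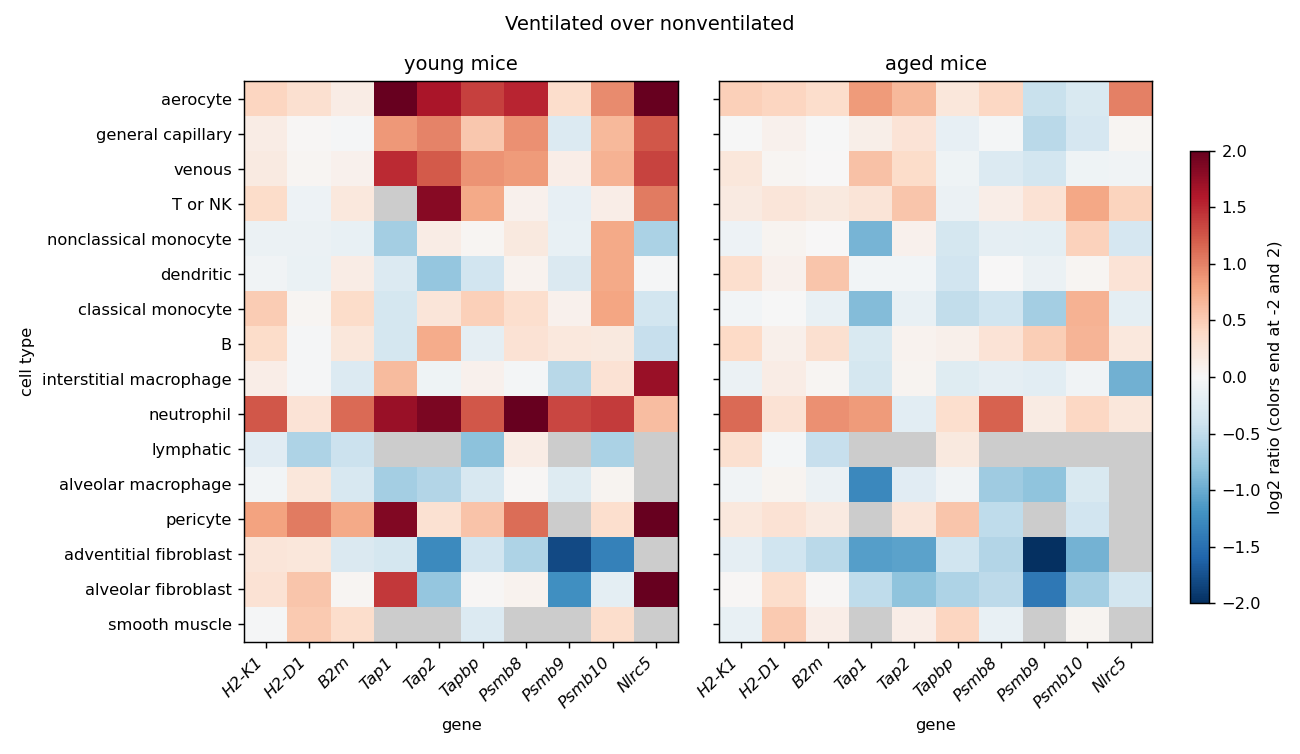
Log2 of the ventilated over nonventilated ratio of each gene in 16 cell types, in young (left) and aged mice (right). Red is higher and blue lower after ventilation, and gray marks sums with under 20 UMIs in both libraries; red fills the aerocyte, venous and neutrophil lines in young mice, the lymphatic line is mostly blue or gray there, and blue marks *Psmb9* and *Tap2* in fibroblasts.

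Pericytes, which wrap the capillaries, also had higher member levels in young mice. Of the 9 members with 20 UMIs in a library, 6 were at least 1.5-fold higher, beside 14.0% of 3751 genes, including *H2-D1* at 2.05-fold (1.65 to 2.56) and *Tap1* at 3.59-fold (1.72 to 8.39). *Nlrc5* went from 1.89 CPM, a single UMI, to 39.2 CPM, a ratio of 20.8 whose counting interval runs from 3.42 to 851. In aged pericytes, none of the 7 members with enough UMIs reached 1.5-fold, beside 13.4% of 3801 genes higher and 11.6% lower. A mean of 50 CPM was reached by 7 members at each age.

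In fibroblasts and alveolar macrophages, some members were lower after ventilation. In alveolar fibroblasts, *Tap2* was at 42.6, 24.9, 43.9 and 25.1 CPM and *Psmb9* at 20.1, 8.63, 20.3 and 7.48 CPM, lower after ventilation at both ages with little difference between ages. The ratio for *Psmb9* was 0.429 (0.298 to 0.616) in young and 0.369 (0.227 to 0.587) in aged mice. *Tap1* differed from its promoter neighbor in these cells, being 2.67-fold higher (1.81 to 4.05) in young and at 0.701 (0.430 to 1.14) in aged mice. *Nlrc5* was 3.96-fold higher (2.11 to 8.23) in young alveolar fibroblasts, from a low level of 3.21 CPM. In these young cells, 2 of 10 members were at least 1.5-fold higher and 2 lower, beside 22.9% and 21.2% of 3505 genes. In aged alveolar fibroblasts, 4 of 10 members were at least 1.5-fold lower, beside 15.3% of 3474 genes. A mean of 50 CPM was reached by 5 of the 10 at each age. *Nlrc5*, *Tap1*, *Tap2* and *Psmb9*, the members past 1.5-fold in young mice, were all below it, so those counts cannot be set against the shares. The lower members in aged mice include *Tap2* and *Psmb9*, which were below it too. In adventitial fibroblasts, 4 of the 9 members with enough UMIs were at least 1.5-fold lower in young mice, beside 25.5% of 3486 genes, and 4 in aged mice, beside 19.5% of 3461 genes. There, only 4 members reached 50 CPM in young and 5 in aged mice. The lower ones in young mice, *Tap2*, *Psmb8*, *Psmb9* and *Psmb10*, were all below it, so that count cannot be set against the share. Alveolar fibroblasts joined a mostly nonventilated, a mostly ventilated and a shallow cluster.

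Alveolar macrophages had 99, 108, 98 and 52 cells. *Tap1* was at 18.6, 11.6, 24.3 and 9.96 CPM, lower after ventilation, with ratios of 0.626 (0.356 to 1.09) in young and 0.410 (0.175 to 0.859) in aged mice. Of the 9 members with enough UMIs, 2 were at least 1.5-fold lower in young mice, beside 14.9% of 3614 genes, and 3 in aged mice, beside 7.99% of 3641 genes. None was 1.5-fold higher at either age, beside 11.6% of genes in young and 5.11% in aged mice. A mean of 50 CPM was reached by 6 members at each age. The lower ones in young mice, *Tap1* and *Tap2*, were both below it, so that count cannot be set against the share. Of the 3 lower ones in aged mice, *Tap1* and *Psmb9* were below it, while *Psmb8* (log2 ratio −0.71) reached it. *Nlrc5* had too few UMIs for a ratio.

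Monocytes split by gene. In nonclassical monocytes, *Psmb10* was 1.70-fold (1.41 to 2.05) and 1.38-fold (1.19 to 1.61) higher after ventilation in young and aged mice, while *Tap1* was at 0.625 and 0.523 of the nonventilated level. In classical monocytes, *Psmb10* was 1.72-fold and 1.63-fold higher, and *Tap1* at 0.782 and 0.545. The ratios of these 2 genes thus lay on opposite sides of 1 at both ages in both monocyte types, whereas in young aerocytes, general capillary and venous cells both were higher. Between ventilated libraries, 6 of 10 members were at least 1.5-fold lower in aged classical monocytes, beside 4.17% of 3332 genes. Nearly all nonventilated and nearly all ventilated classical monocytes lay in separate clusters.

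In nonventilated lungs, member levels differed with age in both directions, depending on the cell type. In B cells, 4 of 10 members were at least 1.5-fold higher in the aged library, beside 6.43% of 3470 genes. They were *Tap2* (1.74-fold, 1.13 to 2.72), *Nlrc5* (1.62-fold, 1.08 to 2.47), *Psmb9* (1.56-fold, 1.18 to 2.08) and *Tap1* (1.56-fold, 1.09 to 2.23). In interstitial macrophages, 4 of 10 were, beside 8.87% of 3280 genes, with *Nlrc5* at 2.90-fold (2.05 to 4.16) and *Tap1* at 2.07-fold (1.39 to 3.14). Interstitial macrophage *Nlrc5* was at 36.6, 121, 106 and 54.7 CPM, so that it was higher after ventilation in young and lower in aged mice.

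Nonclassical monocytes went the other way, with 8 of 10 ratios of aged over young nonventilated cells below 1. *Nlrc5* (0.620, 0.492 to 0.781) and *Tap1* (0.624, 0.502 to 0.779) were the 2 of 10 members at least 1.5-fold lower, beside 2.21% of 3581 genes. In smooth muscle, 5 of the 7 members with enough UMIs were at least 1.5-fold higher in the aged library, beside 5.54% of 3500 genes, among them *H2-K1* at 1.66-fold (1.32 to 2.08) and *H2-D1* at 1.61-fold (1.28 to 2.03). Between the nonventilated libraries, a mean of 50 CPM was reached by 4 members in smooth muscle and 8 in interstitial macrophages.

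Lymphatic endothelium, with 31, 31, 29 and 20 cells, had mostly lower member levels in the young ventilated library, a difference from the other endothelial types that was not tested. In young mice, 5 of the 6 members with enough UMIs had ratios of ventilated over nonventilated below 1 and 3 were at least 1.5-fold lower, beside 21.2% of 3348 genes. *H2-D1* was at 0.654 (0.535 to 0.799), *Tapbp* at 0.564 (0.340 to 0.917) and *Psmb10* at 0.647 (0.332 to 1.23). Without ventilation, 3 of 6 members, *Tapbp*, *Psmb8* and *Psmb10*, were at least 1.5-fold lower in the aged library, beside 16.4% of 3099 genes. In T or NK cells, 3 of 9 members were at least 1.5-fold higher after ventilation in young mice, beside 17.2% of 3562 genes, with *Tap2* at 3.53-fold (1.64 to 8.46) and *Nlrc5* at 2.06-fold (1.34 to 3.21). In aged T or NK cells, *Psmb10* alone of 10 passed, at 1.70-fold (1.20 to 2.42), beside 10.8% of 3598 genes.

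The immunoproteasome was set against its constitutive counterparts. *Psmb5*, *Psmb6* and *Psmb7* were higher after ventilation over all cells at both ages, by 0.56, 0.54 and 0.38 in young and 0.59, 0.34 and 0.22 in aged mice on the log2 scale. As a share of the UMIs of *Psmb8* and *Psmb5* together, *Psmb8* took 64.1%, 63.0%, 65.2% and 55.4% over all cells in the usual library order. In aerocytes, it took 60.2%, 84.0%, 60.1% and 68.0%, and in neutrophils 60.6%, 90.4%, 59.1% and 72.9%. Alveolar macrophages went the other way, at 48.0%, 29.1%, 53.1% and 32.1%, and so did nonclassical monocytes, at 77.3%, 60.1%, 70.2% and 51.0%. Classical monocytes did too, at 71.5%, 61.4%, 75.9% and 47.8%. The share was also lower after ventilation at both ages in interstitial macrophages, dendritic cells, B cells, lymphatic endothelium and both fibroblast types. Among the compared types, only aerocytes and neutrophils had a higher *Psmb8* share after ventilation at both ages. The other pairs differed from this one. *Psmb9* took 44.0%, 31.8%, 42.7% and 34.2% of its pair with *Psmb6* over all cells, lower in both ventilated libraries. *Psmb10* took 59.65%, 61.0%, 57.8% and 55.2% of its pair with *Psmb7*. Its share was higher after ventilation at both ages in both monocyte types, with overlapping intervals (67.2%, 71.9%, 59.7% and 62.2% in classical monocytes). In aged aerocytes, ventilation went with lower shares of *Psmb9* (38.3% to 29.4%) and *Psmb10* (66.7% to 60.4%), also with overlapping intervals. These are shares of captured UMIs, and how well each transcript was captured is not known.

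**Figure D5:**
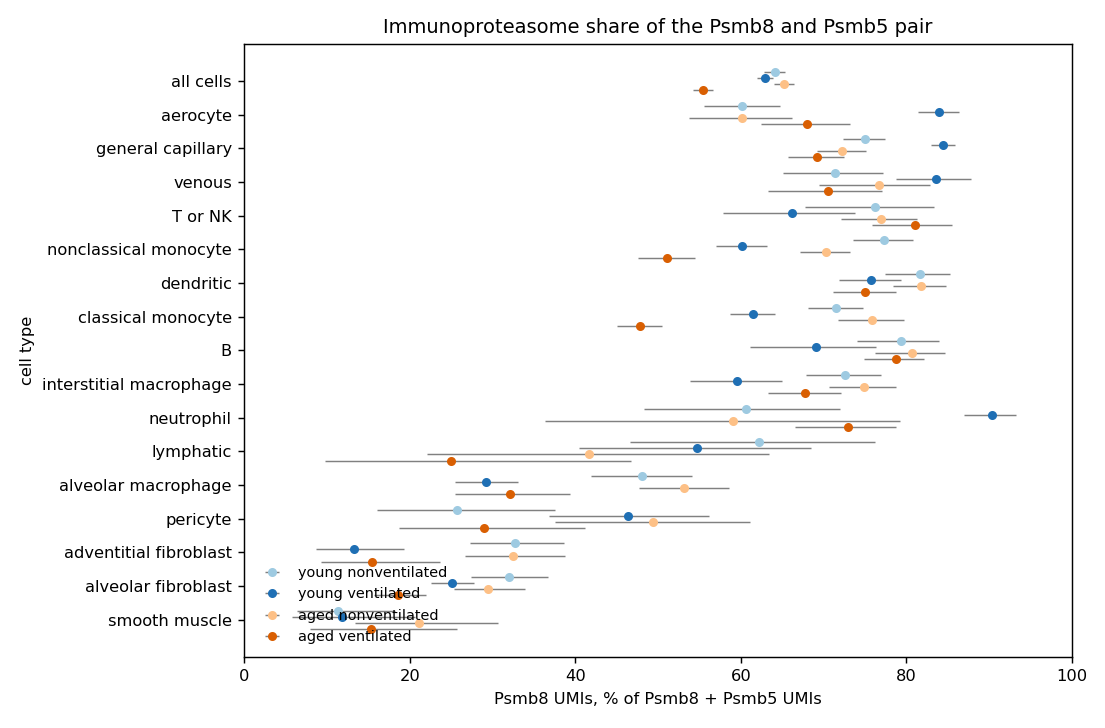
Share of *Psmb8* among the UMIs of *Psmb8* and *Psmb5*, in percent, over all cells and in each compared cell type of the 4 libraries. Bars are exact 95% binomial intervals. The young ventilated point is highest in aerocytes, general capillary and venous cells and neutrophils. Both ventilated points are below both nonventilated ones in alveolar macrophages, monocytes, interstitial macrophages, dendritic cells and fibroblasts, among others.

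Among other genes of the pathway, in all cells, the counts are read against 14.7% of genes at least 1.5-fold higher and 14.5% lower in young mice, and 9.17% and 11.5% in aged mice. Of these, 2 of the 7 measured peptide loading and trimming genes with at least 50 CPM were at least 1.5-fold higher in young mice and 3 of 7 in aged mice. *Hspa5*, an endoplasmic reticulum chaperone, was 2.18-fold and 1.79-fold higher, and *Calr*, of the loading complex, 1.63-fold and 1.62-fold higher. Of 6 other class I-like heavy chains with enough signal, none was at least 1.5-fold higher at either age, and *Fcgrt*, the neonatal Fc receptor chain that also pairs with B2M, was at 0.482 in young and 0.582 in aged mice. Of 18 interferon-inducible reference genes, 14 had enough signal in young mice and 9 in aged mice. Of these, 13 and 7 were at least 1.5-fold higher. Enough signal meant a mean of 50 CPM over the compared libraries, so a gene could enter through its high ventilated level alone. That filter favors high counts, and the young and aged counts cover different numbers of genes. Between the nonventilated libraries, 5 of the 18 had enough signal. Of the proteasome activator and assembly genes, 1 of 3 was higher in young mice and 0 of 3 in aged mice, and of interferons and their receptors, 0 of 3 and 0 of 4. Of the transcription factors of class I genes, 4 of 10 were higher in young mice, and in aged mice 0 of 9 were higher and 1 was lower. *Irf7* was 5.01-fold (4.59 to 5.47) and *Stat2* 1.89-fold (1.78 to 2.01) higher in young mice, and *Irf1* was at 0.508 (0.490 to 0.526) in aged mice.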

How the data were processed

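Per the labels and the study's methods, lung cells were captured with 10x 3′ chemistry and the authors aligned reads to mm10 and counted UMIs with Cell Ranger 7.0.0. The deposited files hold raw counts, 1 matrix per library. A barcode was kept if it had 200 to 5000 genes, a mitochondrial share of up to 10% and up to 28597 UMIs (the 93rd percentile of all barcodes). No doublet caller was run. Cells were clustered in Seurat 5.3.0 (2000 variable genes, less 21 member and pathway genes, 37 components, resolution 0.5, 30 clusters), and clusters of the same markers were joined and named after they were seen. UMIs were summed per library and type and scaled to CPM. Ratios have exact conditional binomial, levels exact Poisson and shares Clopper-Pearson 95% intervals, which cover counting error only. With 1 library per group, no test was made. Genes were counted as past 1.5-fold at a mean of 50 CPM, and members at 20 UMIs in either sum. Members, lists and tests were chosen with earlier results of these data known. Named were all members, some of the pathway genes past 1.5-fold with an interval without 1, the 3 constitutive subunits and the genes most like each member. Other pathway genes past 1.5-fold are given as counts only. Alternatives changed the UMI and mitochondrial limits, scaling (TMM factors, edgeR 4.0.16), cell weighting, thinning, cell type mix, resolution and call limits. The interval scripts were tested on simulated data. Python 3.11.15, numpy 2.4.6, scipy 1.17.1 and R 4.3.3 were used. Promoter sequences were RefSeq's (GRCm38.p6) and gene positions GENCODE's.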

Additional observations from a re-analysis of the deposited data

Results flagged for a closer look

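In several cell groups the ventilated over nonventilated log2 ratio of a member had opposite signs in young and aged mice, with both counting intervals leaving out 0. The difference between ages was not tested in any of them, as each group had 1 library. *Tapbp* was at 0.35 in young and −0.17 in aged mice over all cells (0.02 in aged mice under TMM scaling), at 0.54 and −0.16 in general capillary cells, and at 0.47 and −0.49 in classical monocytes. *Psmb10* was at 0.65 and −0.34 in general capillary cells. In interstitial macrophages, *Nlrc5* was at 1.72 and −0.95 and *H2-K1* at 0.13 and −0.12. In classical monocytes, *Psmb8* was at 0.34 and −0.40 and *B2m* at 0.37 and −0.15, and TMM factors added 0.23 to the aged ratios there, which turns the aged sign of *B2m*. *H2-D1* in adventitial fibroblasts was at 0.23 and −0.39. Under TMM scaling, the aged intervals of *Tapbp* in general capillary cells, *H2-K1* in interstitial macrophages and *Psmb8* in classical monocytes also held 0.

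The 5268 barcodes left out by the limits on genes, UMIs and mitochondrial share also held member UMIs. Among them, *Nlrc5* had a ventilated over nonventilated ratio of 2.12 (1.94 to 2.32) and *Tap1* one of 1.67 (1.53 to 1.83) in young mice. In aged mice, the same ratios were 1.14 (1.05 to 1.25) and 1.16 (1.06 to 1.27). The other young ratios ran from 0.833 (*Psmb9*) to 1.496 (*Psmb8*). *H2-K1* (0.970), *H2-D1* (0.932), *B2m* (0.841) and *Psmb9* had intervals below 1. In the 3463 barcodes over 10% mitochondrial, the aged ratios were 1.25 (1.01 to 1.55) for *Nlrc5* and 0.820 (0.612 to 1.10) for *Tap1*. All aged ratios there but that of *Nlrc5* were below 1, with *Psmb9* lowest at 0.493 (0.340 to 0.705). The young ratios there were 3.192 (2.465 to 4.178) for *Nlrc5* and 1.94 (1.405 to 2.709) for *Tap1*. Those of the other members ran from 0.861 (*Psmb9*) to 1.63 (*Psmb10*) in young mice. The share over all genes was not computed for the barcodes left out.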

How the results depend on the processing

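No paired analysis was possible because each group had 1 library, and for the same reason no replicate could be left out. Over all cells in young mice, the number of members at least 1.5-fold higher after ventilation was 5 with TMM scaling, 4 with the mean of per-cell CPM and 4 with cells thinned to 2000 UMIs, and 1 passed a 2-fold limit. The member median log2 ratio was then 0.63 with TMM scaling and 0.48 with per-cell CPM, and 0.25 with TMM scaling in aged mice. For aged over young ventilated lungs, the number lower was 5 with per-cell CPM, 4 with thinned cells, 4 with the same cell type mix and 0 at 2-fold, and the median was −0.57 with per-cell CPM, −0.51 with the same mix and −0.35 at a mitochondrial limit of 5%. In general capillary cells, the median was 0.46 (thinned) and 0.90 (TMM) in young and 0.13 (TMM) in aged mice. In aerocytes, it was 1.46 (TMM) in young, and 0.24 (thinned) and 0.65 (TMM) in aged mice. In young venous cells, it was 0.41 (thinned). The cause of these shifts was not tested. Venous and dendritic cells were among the types without a value at resolution 0.18, where no cluster took those names. Adventitial fibroblasts and smooth muscle were not the best marker match of any cluster there either. The log2 ratios of single members were repeated over all cells and in general capillary, aerocyte and venous cells and neutrophils only. Of these values, 934 stayed within their counting interval and 254 did not.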
